A study of Mus musculus with 12 samples.

Results

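Cells labelled reprogrammed lung were compared with cells labelled adult lung, across all genes, on 6 of the 12 single-colour mouse arrays of the series. The members are the 3 reprogrammed lung arrays (replicates 1, 3 and 4) and the 3 adult lung arrays (replicates 1, 2 and 3), taken by their titles. All are labelled as epithelial cells. The study, by its title, concerns regeneration of organs in vivo by adult cells whose lineage is redirected by stroma.

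Adult donors were female mice aged 10 weeks whose lungs were perfused, minced and digested for 45 min with trypsin and collagenase A, each at 2 mg/ml. Lung epithelium was then enriched by differential centrifugation, repeated 7 times, and no sorting of cells is mentioned. The same protocol text stands on every sample, describes cells prepared in Matrigel for transplantation, and also covers epithelium of E13.5 embryonic lung. It does not say which donor cells gave the reprogrammed lung samples, how long they were in the host, whether host cells remained in them, or whether their organ name is that of the donor or of the tissue that formed. No strain, allele or transgene is given. No label says whether the arrays of 1 group are from different animals, so p-values measure the spread between arrays, which may be technical.

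Lung and mammary epithelium are built from different cells under different regulators. The lung surface is made by flat alveolar type I cells, which carry gas exchange, by surfactant-secreting type II cells and by club and ciliated cells of the airways, and its identity depends on the transcription factor NKX2-1. The mammary gland is a bilayer of luminal cells, some of which carry oestrogen and progesterone receptors while others make milk under prolactin and STAT5, over contractile basal cells, and it lies in a fat pad that holds adipocytes, vessels and a lymph node.

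Of the 3 reprogrammed lung arrays, replicate 1 stood apart from the others in its signals. On replicate 1, 91.1% of probes were well above background, against 75.2% and 76.8% on replicates 3 and 4 and 71.8% to 76.3% on adult lung, and its signals covered a narrower range, 6.10 log2 units between percentiles 10 and 90 against 8.46 to 9.08. Across features, replicates 3 and 4 correlated at r = 0.951 with each other, but at 0.869 and 0.859 with replicate 1, while adult lung arrays correlated with each other at 0.972 to 0.984 (these are descriptions over features that share an array). Results are therefore given with all arrays and, where they differ, without replicate 1. Each adult lung array shared a slide with 1 reprogrammed lung array, which gives 3 differences within a slide.

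The groups differed widely. Of 24504 tested features, 5727 (23.4%) differed at an adjusted p under 0.05: 3446 (14.1%) were higher and 2281 (9.31%) lower in reprogrammed lung, 2482 and 1618 of them by at least 2-fold. Of those that carry a gene symbol, 2054 were higher and 1401 lower. The sign was the same within all 3 slides for 5651 of 5683 called features with a value on all 6 arrays, and for 5611 of these the groups did not overlap. Over all features with 6 values, 21.1% lay without overlap above adult lung and 15% below. Without replicate 1, 29.6% of features were called, 3985 (16.3%) higher and 3269 (13.3%) lower, and 5044 features were called in both fits in the same direction. The balance of the directions depends on the scale: 60.2% of calls were higher on the main scale, 50.7% after quantile normalization, 47.5% with the authors' deposited log2 values and 39.7% with normexp background correction. The median difference of all features moved from 0.10 to -0.01, -0.004 and -0.20 with these 3 scales, and to -0.01 without replicate 1.

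**Figure D1:**
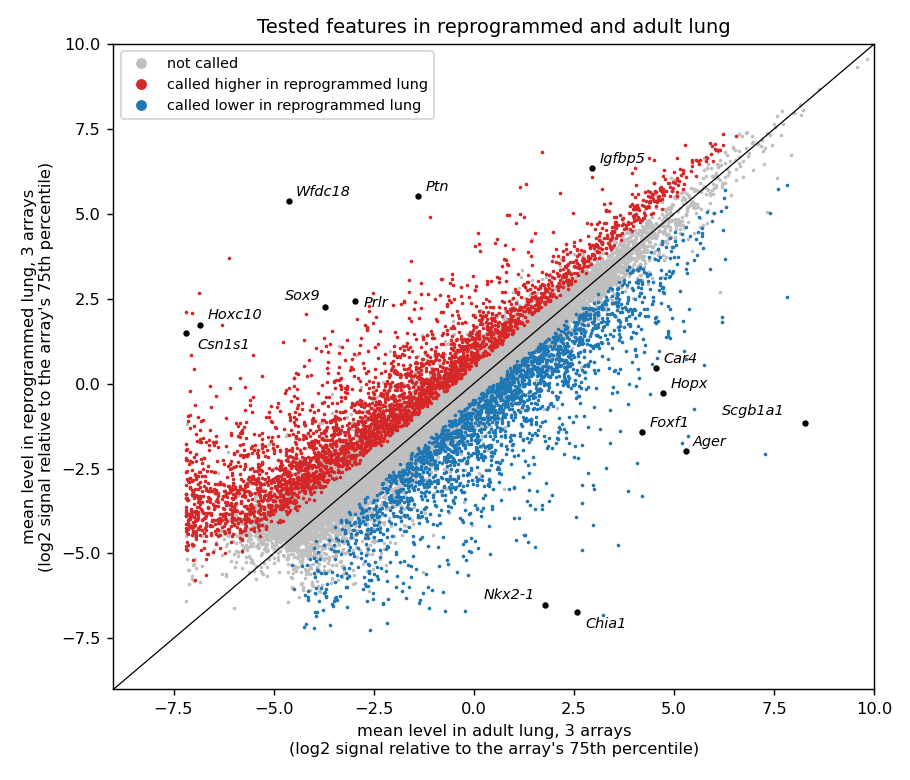
Mean level of each of the 24504 tested features in adult lung (x axis) and in reprogrammed lung (y axis), each over 3 arrays and in log2 signal relative to the array's 75th percentile; the line marks equal levels. Red points are the 3446 features called higher in reprogrammed lung, blue points the 2281 called lower and grey points the rest, with named genes in black.

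The transcription factors that set lung identity were far lower in reprogrammed lung. Of 22 tested lung transcription factors, 12 fell and 4 rose (Sox9, Foxa1, Etv4 and Id2, of which Foxa1 and Etv4 lost the call with normexp), with a median log2 difference of -1.16 against 0.10 over all features. Nkx2-1 stood at levels of 1.66, 1.85 and 1.83 in adult lung, where a level is log2 signal relative to the 75th percentile of the array, and at -4.94, -7.05 and -7.52 in reprogrammed lung. It was above background on every adult lung array and on 0 of the 3 reprogrammed lung arrays, so the difference is a bound of at least 109-fold (adjusted p = 1.06e-05).

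Regulators of the lung's mesenchyme fell as well. Tbx4, the T-box factor that marks lung mesenchyme, stood at 2.77, 2.77 and 2.53 in adult lung and at -2.81, -3.62 and -4.10 in reprogrammed lung (log2 -6.20 ± 0.29 SE, 73.7-fold, adjusted p = 3.01e-06). Foxf1, the forkhead factor of lung mesenchyme and capillaries, stood at 4.53, 4.07 and 3.99 against -0.63, -2.07 and -1.59 (-5.63 ± 0.35 SE, 49.4-fold, adjusted p = 8.16e-06). In neither case did any reprogrammed lung array come near an adult lung array. Tcf21, a factor of lung fibroblasts, fell by 3.74 and Hoxa5, a Hox gene of lung mesenchyme, fell by 2.61.

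Hopx, a homeodomain protein of type I cells, gave the tightest difference of the set. It stood at 4.69, 4.77 and 4.74 in adult lung and at -0.30, -0.29 and -0.25 in reprogrammed lung, which is 32.3-fold lower (log2 -5.01 ± 0.19 SE, adjusted p = 8.37e-07), and replicate 1 did not differ here from replicates 3 and 4. Foxa2, the forkhead factor that opens endodermal enhancers, stood at -1.30, -0.65 and -0.63 against -4.61, -5.55 and -5.96 (-4.52 ± 0.48 SE, adjusted p = 0.00016), with 1 of 3 reprogrammed lung arrays above background. Its relative Foxa1, which in the mammary gland works with the oestrogen receptor, rose by log2 1.80 (adjusted p = 0.00534).

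Sox9 went the other way from the lung factors. This factor marks the distal tips of embryonic lung and also luminal progenitors of the mammary gland. It stood at -3.93, -4.12 and -3.11 in adult lung and at 0.50, 3.27 and 3.02 in reprogrammed lung, with replicate 1 the lowest of the 3 yet above all adult lung arrays (log2 5.98 ± 0.61 SE, 63.2-fold, adjusted p = 0.000123, and 6.86 without replicate 1). Another tested probe of Sox9 gave 3.69, and another of Tbx4 gave -2.64. In adult mammary the mean level of Sox9 was 3.19, and that of Nkx2-1 was -6.91.

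**Figure D2:**
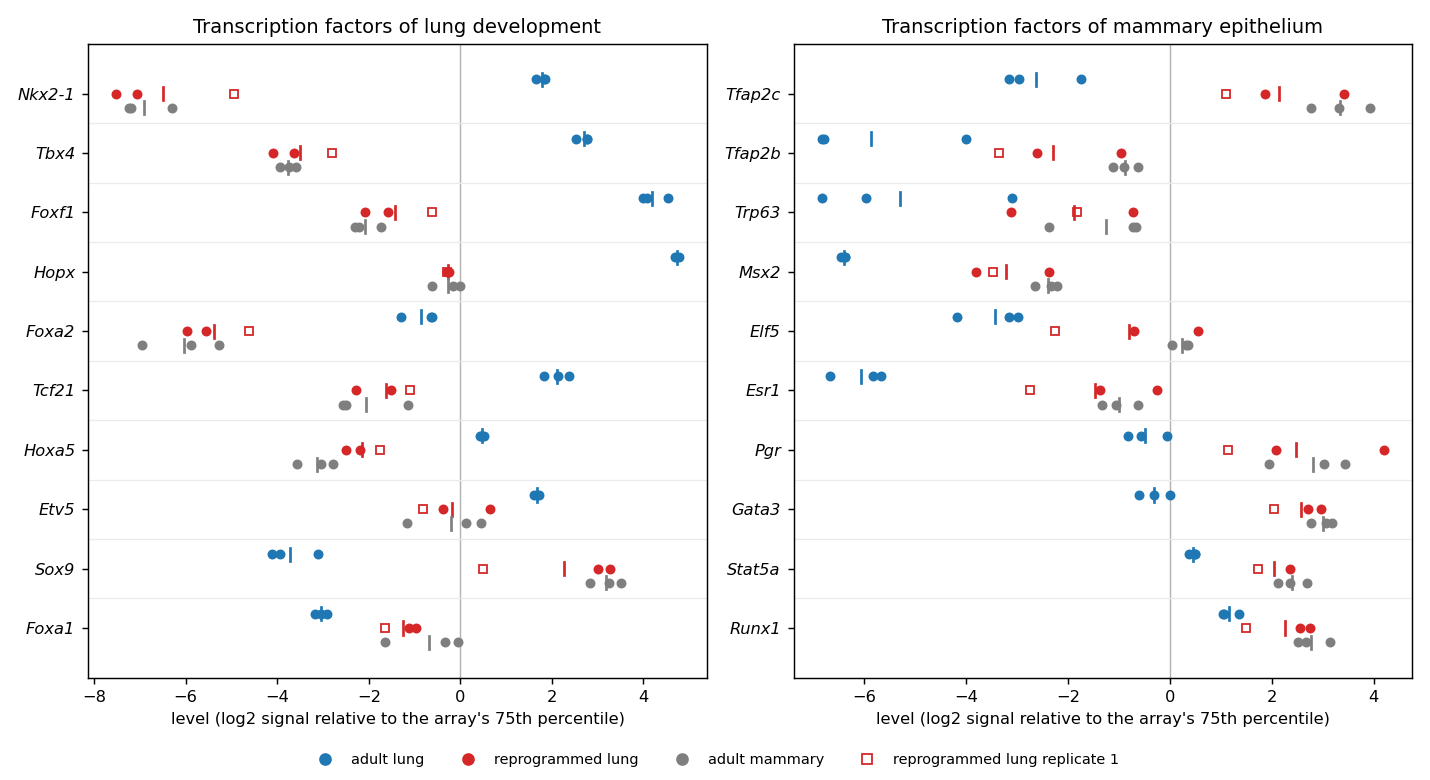
Levels of 10 transcription factors of lung development (left) and 10 of mammary epithelium (right) on each array (x axis, log2 signal relative to the array's 75th percentile); short bars are group means. In the left panel the reprogrammed lung arrays (red, replicate 1 as an open square) lie with adult mammary (grey) and apart from adult lung (blue) for Nkx2-1, Tbx4, Foxf1 and Hopx, and in the right panel for Tfap2c, Gata3 and Esr1.

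Genes of the alveolar type II cell were nearly all lower. Of 17 tested members, 14 fell and 1 rose (Slc27a2, a fatty acid transporter, by 2.33, a sign that turned with normexp), with a median of -3.08 and slide medians of -3.17, -2.52 and -2.86. Surfactant protein genes are shown with their promoters, since they are established targets of NKX2-1. The 160 bases before the start of Sftpa1 (chr14:41131628-41131787, plus strand) and of Sftpb (chr6:72304450-72304609, plus strand), from RefSeq on GRCm38.p6, are printed 5′ to 3′, with capitals marking CTCAAG or CAAGTG on either strand, short sequences of the type that NKX2-1 binds.
Sftpa1: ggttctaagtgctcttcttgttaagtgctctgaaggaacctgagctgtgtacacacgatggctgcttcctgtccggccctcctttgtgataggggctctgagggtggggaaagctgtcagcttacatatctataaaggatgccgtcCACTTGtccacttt
Sftpb: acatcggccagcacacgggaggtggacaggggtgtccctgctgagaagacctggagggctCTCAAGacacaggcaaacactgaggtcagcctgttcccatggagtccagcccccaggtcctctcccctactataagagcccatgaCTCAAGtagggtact

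The first base of the match lay at -14 from the start in Sftpa1 and at -100 and -15 in Sftpb. Either motif was found in the 250 bases before 22.6% of 32851 RefSeq starts, and before 4 of 15 starts of type II genes, 4 of 20 of type I genes and 7 of 15 of airway secretory genes. The motifs can overlap each other, and a window with both was counted once. A match is a description of the letters and not a binding site.

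Sftpb, the surfactant protein needed for a stable alveolar film, stood at 3.87, 4.34 and 4.01 in adult lung and at -1.76, -2.74 and -2.48 in reprogrammed lung (log2 -6.40 ± 0.28 SE, 84.6-fold). The type II genes differed in how far they were lost and in how evenly. Sftpd, the surfactant collectin of innate defence, stood at 5.06, 5.83 and 5.66 against -2.52, 1.96 and -1.65, so that replicate 3 held far more than the others (-6.25 ± 1.20 SE, adjusted p = 0.00395). Sftpa1 stood at 2.81, 3.14 and 3.00 against -3.18, -7.12 and -2.19, and here replicate 3 was the lowest and not above background, while another tested probe gave a difference of -9.41. Abca3, the lipid pump of lamellar bodies, differed least among the surfactant machinery, at 1.90, 2.02 and 1.90 against -0.26, 0.89 and 0.38 (-1.60 ± 0.28 SE, 3.04-fold, adjusted p = 0.00229). Napsa, the protease that processes surfactant precursors, fell by 3.81, with replicate 1 at 0.62 and replicates 3 and 4 at -2.97 and -2.89.

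Of 17 tested type I genes, 16 fell and none rose, with a median of -3.32. Cldn18, the lung claudin of tight junctions, stood at 3.76, 3.91 and 3.84 in adult lung and at -0.54, -4.95 and -3.99 in reprogrammed lung (log2 -7.00 ± 1.25 SE, adjusted p = 0.00274, and -8.31 without replicate 1), with 2 of the 3 reprogrammed lung arrays above background. Clic5, a chloride channel family protein, stood at 4.11, 4.26 and 4.14 against -1.25, -1.76 and -1.19 (-5.57 ± 0.36 SE, 47.5-fold). Vegfa, through which type I cells sustain capillaries, stood at 4.59, 5.02 and 4.96 against 0.61, 1.66 and 2.35 (-3.32 ± 0.36 SE, 9.99-fold, adjusted p = 0.000173). Every reprogrammed lung array lay below every adult lung array for these 3 genes. Aqp5, a water channel that type I cells share with glands elsewhere, was the member not called, with levels of 2.00, 2.20 and 2.29 against 0.00, 2.08 and 1.91 (-0.83, adjusted p = 0.359).

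In the airway list, 10 of 15 tested secretory genes fell and none rose, with a median of -2.08. Scgb3a1, a secretoglobin of upper airway cells, stood at 4.33, 4.51 and 5.75 in adult lung and at 0.00, 0.51 and 3.70 in reprogrammed lung, so replicate 4 lay within 1 log2 unit of the lowest adult lung array (log2 -3.46 ± 0.79 SE, adjusted p = 0.00953). Bpifa1, a secreted defence protein of the airway, was also highest on replicate 4 among these, at -4.74, -7.15 and -1.53 against 0.45, 1.09 and 2.23 (-5.73 ± 1.15 SE), with 2 of 3 reprogrammed lung arrays above background. Ltf, lactoferrin, which both airway glands and the mammary gland secrete, did not pass with all arrays (log2 2.81, adjusted p = 0.11) and rose without replicate 1 (4.14, adjusted p = 0.00953), with levels of 1.58, 6.93 and 4.26 against 0.82, 1.19 and 2.35 in adult lung. Of 18 motile cilium genes, 8 fell, 11 without replicate 1, with a median of -1.55. That median was -0.28 within the slide of replicate 1, -0.72 over members above background on all arrays and -1.85 with the mean of all probes. Dnali1, an axonemal dynein light chain, stood at 0.86, 1.08 and 0.86 against -0.81, -2.12 and -1.60 (-2.44 ± 0.36 SE, adjusted p = 0.000936). Foxj1, the regulator that switches on motile cilia, stood at -2.45, -2.08 and -2.20 against -2.63, -5.27 and -4.49 and did not pass (-1.89, adjusted p = 0.175; -2.64 and 0.0596 without replicate 1).

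Mammary genes took the opposite course. Of 27 tested mammary transcription factors, 17 rose and 1 fell, with a median of 1.59 (0.55 with normexp). The one that fell was Tbx3 (log2 -3.01), a T-box factor of the mammary bud that lung mesenchyme and capillaries also express. Tfap2c, an AP-2 factor of luminal cells, stood at -2.96, -3.17 and -1.74 in adult lung and at 1.1, 3.42 and 1.87 in reprogrammed lung (log2 4.75 ± 0.56 SE, 27.0-fold, adjusted p = 0.000276). Gata3, the factor that maintains luminal differentiation, stood at -0.61, 0.00 and -0.32 against 2.04, 2.96 and 2.72 (2.89 ± 0.26 SE, 7.39-fold, adjusted p = 5.47e-05). The 2 groups of arrays did not overlap for either gene. Elf5, the alveolar luminal factor that drives milk genes, stood at -4.18, -3.15 and -2.98 against -2.26, 0.56 and -0.70 (2.63 ± 0.59 SE, adjusted p = 0.00874, and 3.36 without replicate 1), with replicate 1 lowest of the reprogrammed arrays, and the call was lost with normexp (1.08, adjusted p = 0.197). Id4, a regulator of basal and progenitor cells, rose by log2 3.02, and Stat5a, the transducer of prolactin, by 1.59 on the 2 reprogrammed lung arrays that gave a value for it. Msx2, a homeobox factor of the embryonic mammary bud, rose by a fitted 3.18 from below background on all adult lung arrays, a bound of at least 3.28-fold, which changed sign with normexp.

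Milk genes had the largest median difference of the 47 lists and varied widely between arrays. Of 16 tested members of the milk and alveolar luminal list, 11 rose and none fell, with a median of 4.86, or 3.75 with the 5 members that were dim in adult lung at their bound, and slide medians of 6.82, 2.89 and 4.13. The median was 2.30 with normexp, 2.00 over members above background on all arrays and 3.10 without reprogrammed lung replicate 3. The promoters of Csn1s1 (chr5:87666048-87666207, plus strand) and Csn2 (chr5:87699426-87699585, minus strand) are shown because caseins are the classic targets of STAT5. Printed are the 160 bases before the start from RefSeq on GRCm38.p6, with TTCNNNGAA, the palindrome that STAT5 binds, in capitals.
Csn1s1: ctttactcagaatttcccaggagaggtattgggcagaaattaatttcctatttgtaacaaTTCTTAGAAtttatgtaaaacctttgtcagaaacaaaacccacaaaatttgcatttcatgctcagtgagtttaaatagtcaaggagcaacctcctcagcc
Csn2: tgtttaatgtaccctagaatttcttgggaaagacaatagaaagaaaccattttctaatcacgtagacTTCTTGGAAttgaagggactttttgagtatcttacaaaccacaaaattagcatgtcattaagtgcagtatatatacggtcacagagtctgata

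The match began at -100 in Csn1s1 and at -93 in Csn2. The pattern was found in the 250 bases before 3 of 11 starts of tested milk genes (27.3%) and before 7.02% of all 32851 RefSeq starts. The pattern TTCNNNGAA, though not each match to it, reads the same on both strands. No binding was measured here.

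Csn1s1, alpha-S1 casein, stood at -6.82, -7.29 and -7.42 in adult lung, below background on every array, and at -0.07, 5.40 and -0.88 in reprogrammed lung, at least 85.2-fold higher (adjusted p = 0.00327). Csn1s2a, alpha-S2 casein, stood at -6.75, -7.06 and -7.30 against 0.53, 6.66 and -0.90, at least 130-fold higher (adjusted p = 0.00414). Csn2, beta casein, stood at -6.86, -7.21 and -7.41 against -2.91, 4.26 and -4.89 and did not pass (adjusted p = 0.0625), although it was above background on all reprogrammed lung arrays and none of adult lung. For these 3 caseins replicate 3 stood far above replicates 1 and 4, and the groups did not overlap. Lalba, the alpha-lactalbumin of lactose synthesis, was likewise highest on replicate 3, at -0.91, 3.12 and 1.05 against -2.21, -2.75 and -2.48 (log2 3.57 ± 0.85 SE, adjusted p = 0.0124). Wap, whey acidic protein of late pregnancy and lactation, reached 0.97 on replicate 3 but -3.50 and -4.52 on replicates 1 and 4, against -4.23, -4.56 and -4.07, and was not called (1.94, adjusted p = 0.244). Btn1a1, butyrophilin of the milk fat globule, stood at -3.11, 2.09 and 0.32 against -6.75, -7.17 and -7.32, at least 25.9-fold higher (adjusted p = 0.00101). Csn3, kappa casein, stood at 2.13, 4.92 and 4.05 against -6.84, -7.25 and -4.25, with 1 adult lung array above background (log2 9.81 ± 0.84 SE, adjusted p = 4.25e-05). The calls of Csn1s1, Csn1s2a, Lalba (2.42, adjusted p = 0.0637) and Btn1a1 were lost with normexp, while Csn3 kept its call at a smaller difference (5.58, adjusted p = 0.000242).

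Glycam1 did not share the caseins' order of arrays. This mucin is a milk component and also the product of lymph node high endothelial venules. Its levels were 6.42, 1.92 and -2.01 on replicates 1, 3 and 4 against -6.84, -7.28 and -7.41 in adult lung, at least 131-fold higher (adjusted p = 0.0124, lost with normexp and with the replicate block). It was highest on replicate 1, the array on which B cell genes were also highest, whereas the 4 caseins given were highest on replicate 3. The part of lymph node tissue in the value was not tested.

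Hormone-sensing luminal genes rose as a group, 9 of 16 with none lower and a median of 2.97 (2.59 with 3 dim members at their bound, 1.06 with normexp and 1.94 with the authors' values). Prlr, the prolactin receptor, stood at -3.36, -2.47 and -3.08 in adult lung and at 0.92, 2.79 and 3.58 in reprogrammed lung (log2 5.40 ± 0.63 SE, 42.3-fold, adjusted p = 0.000262). Esr1, the oestrogen receptor, stood at -6.67, -5.83 and -5.68 against -2.74, -1.38 and -0.26, at least 11.1-fold higher (adjusted p = 0.000215, lost with normexp). Pgr, the progesterone receptor, stood at -0.06, -0.58 and -0.83 against 1.15, 2.09 and 4.21 (2.97 ± 0.67 SE, adjusted p = 0.0092). For all 3 receptors replicate 4 was the highest and replicate 1 the lowest reprogrammed lung array, and none overlapped adult lung. Areg, the EGF family ligand that relays oestrogen to neighbouring cells, was even across arrays, at 3.91, 3.80 and 4.47 against 0.03, -0.15 and 0.24 (4.02 ± 0.40 SE, 16.2-fold, adjusted p = 0.000182). Calca and Tnfsf11, the calcitonin gene and the RANK ligand of progesterone-responsive cells, were not called (3.75, adjusted p = 0.0679, and 2.97, adjusted p = 0.2), and each was above background on 2 reprogrammed lung arrays.

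**Figure D3:**
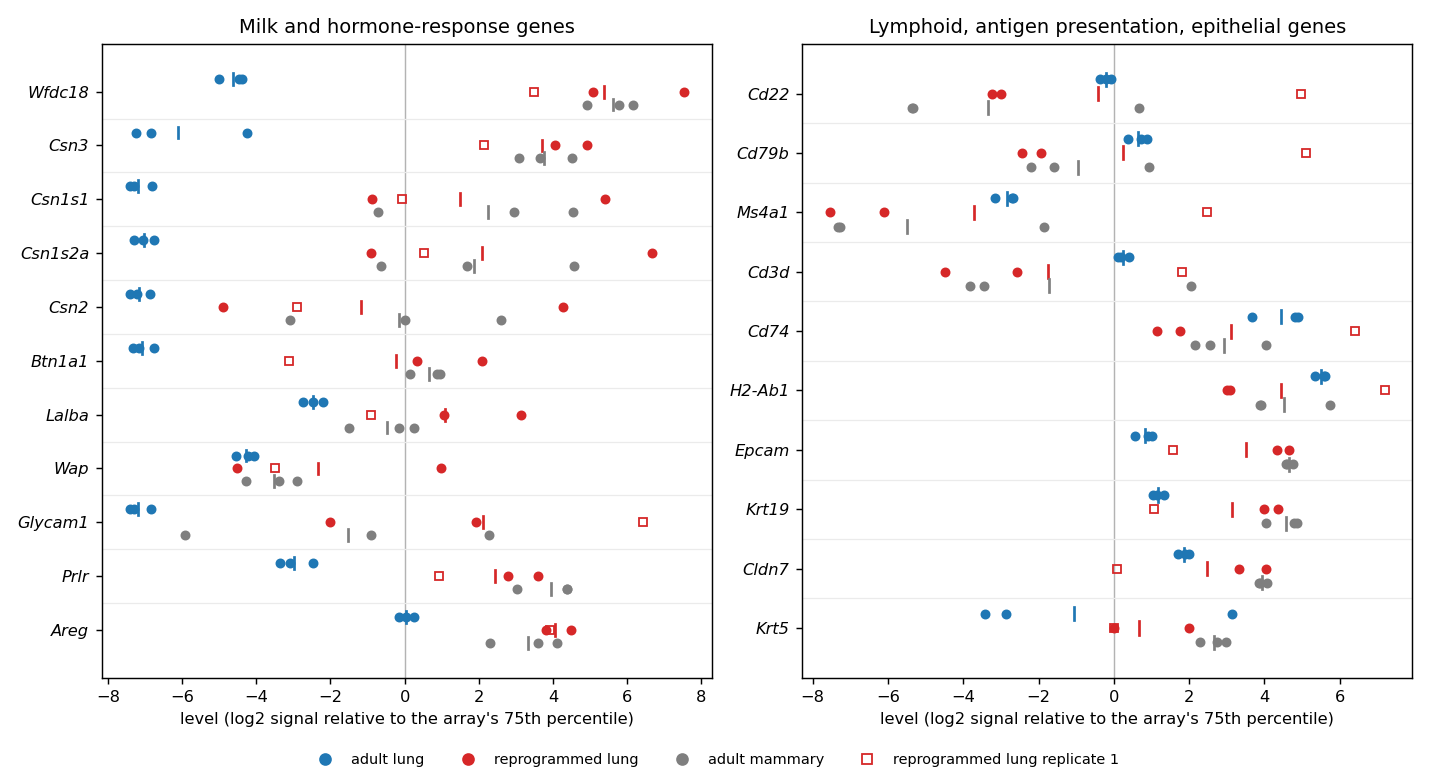
Levels of milk and hormone-response genes (left) and of lymphoid, antigen presentation and epithelial genes (right) on each array (x axis, log2 signal relative to the array's 75th percentile); short bars are group means and the open red square is reprogrammed lung replicate 1. Replicate 1 is the highest array for Glycam1, Cd22, Cd79b and Cd74, while one of the other reprogrammed lung arrays is far higher than it for the caseins.

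Of 20 basal and myoepithelial genes, 10 rose and 1 fell (Dkk3, a secreted Wnt modulator), with a median of 1.43 (0.34 within the slide of replicate 1 and 0.56 with normexp). Igfbp5, an IGF-binding protein of mammary epithelium and stroma, stood at 2.57, 3.04 and 3.24 in adult lung and at 5.52, 6.89 and 6.60 in reprogrammed lung (log2 3.39 ± 0.34 SE, adjusted p = 0.000174). Procr, a receptor of protein C found on mammary progenitors and endothelium, rose by 2.98 and Itgb4, the hemidesmosome integrin, by 2.42. Krt17 rose by 2.40, and the transcription factor Trp63 by 3.41. The call of Trp63 was lost with normexp (0.48, adjusted p = 0.569) and without adult lung replicate 1 or 2 or reprogrammed lung replicate 3. The basal keratins Krt14 and Krt5 did not separate the groups: Krt14 stood at 0.43, 0.48 and 2.34 against 1.22, 3.52 and 2.56 (adjusted p = 0.181, and 0.046 without replicate 1). Krt5 stood at -3.43, -2.88 and 3.15 against -0.01, 2.00 and 0.01 (adjusted p = 0.429), with adult lung replicate 3 above every reprogrammed lung array. The same adult lung array was alone in its high level of Sprr3, a cornified envelope protein of squamous epithelium (4.96 against 0.68 and 0.75).

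Whether general epithelial genes rose depended on replicate 1. With all arrays 9 of 23 pan-epithelial genes rose and none fell (median 0.78), and without it 16 rose (median 1.57). The slide medians were 2.17, -0.59 and 1.33, the negative one being that of replicate 1. Epcam, the epithelial adhesion molecule, stood at 0.56, 1.01 and 0.91 in adult lung and at 1.58, 4.65 and 4.33 in reprogrammed lung (log2 2.69 ± 0.63 SE, adjusted p = 0.0116; 3.66 without replicate 1). Krt19, a keratin of simple epithelia, stood at 1.03, 1.33 and 1.15 against 1.07, 3.99 and 4.37, not called with all arrays (1.97, adjusted p = 0.0614) and called without replicate 1 (3.01, adjusted p = 5.77e-05). Cldn7, a claudin, was below adult lung on replicate 1 only, at 0.09 against 1.71 to 2.00, and at 4.03 and 3.33 on the others (0.61, adjusted p = 0.629; 1.81 and 0.000426 without replicate 1). Erbb3 and Erbb2, ErbB receptors of luminal cells, followed this pattern (adjusted p = 0.679 and 0.969 with all arrays, 0.000298 and 0.0141 without replicate 1). On replicate 1, Cldn7 and Erbb2 thus lay below their adult lung level and Krt19 within it. On replicates 3 and 4 Cldn7 and Krt19 lay above every adult lung array. Epcam lay above every adult lung array on each reprogrammed lung array, replicate 1 included. Epcam was above background on all 6 arrays. So were 71.8% to 91.1% of all probes on each of them, so this mark says little about the kind of cells.

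Endothelial genes were present in both groups, although all samples are labelled epithelial, and most were lower in reprogrammed lung. Of 22 general endothelial genes, 15 fell and 1 rose (median -1.60), and the summed level of the list was 8.11 to 8.36 on adult lung and 6.69 to 7.02 on reprogrammed lung arrays. In cell mixtures such as these, fewer cells of a type and less RNA per cell cannot be told apart. Cldn5, the claudin of blood vessels, stood at 4.33, 4.42 and 4.11 in adult lung and at 0.67, 1.75 and 1.01 in reprogrammed lung (log2 -3.14 ± 0.42 SE, 8.82-fold, adjusted p = 0.000549). Kdr, the VEGF receptor, stood at 3.84, 3.87 and 4.00 against 2.55, 1.27 and 1.41 (-2.16 ± 0.40 SE). Vwf, von Willebrand factor of larger vessels, stood at 4.06, 3.59 and 3.65 against 3.72, 4.27 and 4.16, with overlapping arrays (0.28, adjusted p = 0.572), and Mmrn2, an endothelial matrix protein, rose by 1.59.

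Genes that mark the lung's own capillaries were lower almost throughout. Of 19 tested, 17 fell and none rose, with a median of -2.91 and slide medians of -3.02, -2.72 and -2.56. Car4, the carbonic anhydrase of alveolar capillaries, stood at 4.87, 4.45 and 4.33 in adult lung and at 0.71, 0.10 and 0.54 in reprogrammed lung (log2 -4.10 ± 0.35 SE, 17.1-fold, adjusted p = 4.57e-05). Calcrl, the receptor of adrenomedullin, fell by 3.58, Tmem100, a transmembrane protein of BMP-responsive endothelium, by 5.05, and Lyve1, a hyaluronan receptor of lymphatic and some lung vessels, by 5.79. Each of these 4 genes was separate between groups on all arrays.

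Stromal genes split by type. Of 18 fibroblast genes, 6 rose and 3 fell, and with replicate 1 left out 7 rose and 1 fell. Their slide medians were 0.85, -0.49 and 2.22, and the summed level was 9.14 on reprogrammed lung replicate 4 against 6.93 to 7.45 on the other 5 arrays. Dcn, the matrix proteoglycan decorin, stood at 0.82, 0.67 and 2.28 in adult lung and at 5.02, 3.24 and 6.43 in reprogrammed lung (log2 3.64 ± 0.70 SE, 12.5-fold, adjusted p = 0.00398). Serpinf1, a secreted antiangiogenic serpin, rose by 3.89, whereas Pdgfra, the receptor of alveolar fibroblasts, fell by 2.05, with replicate 4 at 4.97 and replicates 1 and 3 at 2.36 and 2.49 against 5.13 to 5.50 (adjusted p = 0.0235, and 0.052 to 0.0812 without any 1 adult lung array or without reprogrammed lung replicate 1 or 3, and lost with normexp). Collagen genes also changed both ways. Col15a1, a basement membrane collagen of fat and vessels, rose by 2.74, while the alveolar basement membrane chain Col4a3 fell by 4.71 and Col13a1, a transmembrane collagen of lung fibroblasts, fell by 3.34. Of 24 collagens 6 rose and 5 fell, beside 14.1% higher and 9.31% lower over all features.

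Adipocyte genes rose in part, 6 of 13 with 2 lower and a median of 0.89. Fabp4, the fatty acid carrier of fat cells and capillaries, stood at 1.52, 1.40 and 2.18 in adult lung and at 6.63 and 6.98 on reprogrammed lung replicates 1 and 3, with no value on replicate 4 (log2 5.11 ± 0.34 SE, adjusted p = 2e-05). Adipoq, the fat hormone adiponectin, stood at -4.28, -5.29 and -5.61 against -1.10, -2.51 and -1.48 (3.36 ± 0.64 SE, adjusted p = 0.00371, lost with normexp), with 1 of 3 adult lung arrays above background. Pparg, the regulator of fat cell formation that alveolar macrophages also use, was not called (0.54, adjusted p = 0.295). Among mural genes Rgs5, a pericyte marker, rose by 3.12 and Higd1b, a pericyte gene of lung, fell by 2.40. Myh7 and Myh6, the cardiac myosins that mouse lung preparations carry with pulmonary vein muscle, fell by 3.87 and 2.19.

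Lymphoid lists had their highest summed levels of all 12 arrays on replicate 1. B cell genes had slide medians of -1.74, 4.08 and -1.45, the second that of replicate 1, and a summed level of 7.28 there against 3.14 to 3.55 on adult lung and 1.86 and 2.53 on replicates 3 and 4. Of the mammary arrays, adult mammary replicate 4 (4.15) and reprogrammed mammary replicate 2 (4.92) also exceeded adult lung, while the rest did not. Cd22, a B cell receptor co-regulator, stood at -0.37, -0.07 and -0.21 in adult lung and at 4.96, -2.99 and -3.25 in reprogrammed lung, the largest gap of replicate 1 over the nearer of replicates 3 and 4 among named features above background on all 3 of them (7.95). Cd79b, a chain of the B cell receptor complex, stood at 0.36, 0.87 and 0.72 against 5.11, -2.44 and -1.93. For both genes replicate 1 lay above adult lung and replicates 3 and 4 below it, and neither test over the 3 arrays passed (adjusted p = 0.964 for Cd22 and 0.897 for Cd79b). Of 15 B cell genes only Ebf1, a factor that B cells share with adipocyte and stromal precursors, was called, and it rose evenly (0.73, 0.03 and 0.45 against -2.13, -1.89 and -1.90).

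T cell and antigen presentation lists were highest in summed level on the same array. T and NK cell genes had slide medians of -2.47, 1.02 and -2.59, with 1 of 20 called lower and 4 without replicate 1. MHC class II genes had slide medians of -1.92, 2.47 and -2.60, and a summed level of 8.66 on replicate 1, 4.21 and 4.29 on replicates 3 and 4 and 6.40 to 6.75 on adult lung. It was 7.07 on adult mammary replicate 4, 7.14 on reprogrammed mammary replicate 2 and 4.42 to 6.12 on the other mammary arrays. H2-Ab1, a class II beta chain, stood at 5.34, 5.62 and 5.58 in adult lung and at 7.20, 3.10 and 3.02 in reprogrammed lung, not called with all arrays (adjusted p = 0.522) and lower without replicate 1 (log2 -2.45, adjusted p = 0.0169). Cd74, the class II invariant chain, did not pass with all arrays (adjusted p = 0.513) and was lower without replicate 1 (-3.0, adjusted p = 0.0346). The part of lymphoid cells in the other differences of replicate 1 was not tested. The medians of the lung and mammary lists kept their sign when replicate 1 was left out. Without this array the medians of the milk, hormone-sensing, type I, type II and lung capillary lists were 5.84, 3.39, -3.37, -3.37 and -2.88.

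Of 16 macrophage genes 2 fell, Lyz2 and Mertk, and none rose, beside 9.31% lower and 14.1% higher over all features. Their median was 0.36, but -0.32 without replicate 1 and -0.09 with normexp. A separate list of 12 tested alveolar macrophage genes went both ways, with 3 lower and 2 higher, Plet1 (log2 3.7) and Ctsk (2.8). Its median was 0.27, but -0.3 without replicate 1 and -0.32 with normexp. The 3 that fell include Car4, which is also in the lung capillary list. Among the lower ones Chil3, the chitinase-like protein that lung macrophages secrete, stood at 1.34, 1.39 and 1.38 in adult lung and at -1.19, -3.85 and -4.38 in reprogrammed lung (log2 -4.51 ± 0.87 SE, adjusted p = 0.00402). Lyz2, the lysozyme of macrophages and type II cells, fell by 3.52 and Mertk, a receptor for dying cells, by 1.39. Csf1r, the defining receptor of macrophages, was not called by its brightest probe (-1.51, adjusted p = 0.0719), which was lower without replicate 1 (-2.19, adjusted p = 0.00337). Its 2 other tested probes were called lower with all arrays (-1.55, adjusted p = 0.0389, and -1.45, adjusted p = 0.0415). Among 23 chemokines 6 rose and 2 fell, beside 14.1% higher and 9.31% lower over all features. Without replicate 1 the counts were 4 and 4, beside 16.3% and 13.3%. Ccl11, eotaxin, made by fibroblasts, rose by 4.31 and Ccl7, a monocyte attractant, by 3.58. Cxcl13, the B cell attractant of lymphoid stroma, stood at 3.03, -2.90 and 0.79 against -4.07, -5.65 and -3.64, and its call (4.76, adjusted p = 0.0344) was lost without replicate 1 (3.40, adjusted p = 0.0862), without replicate 4 (4.52, 0.0777) or without any 1 adult lung array.

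**Figure D4:**
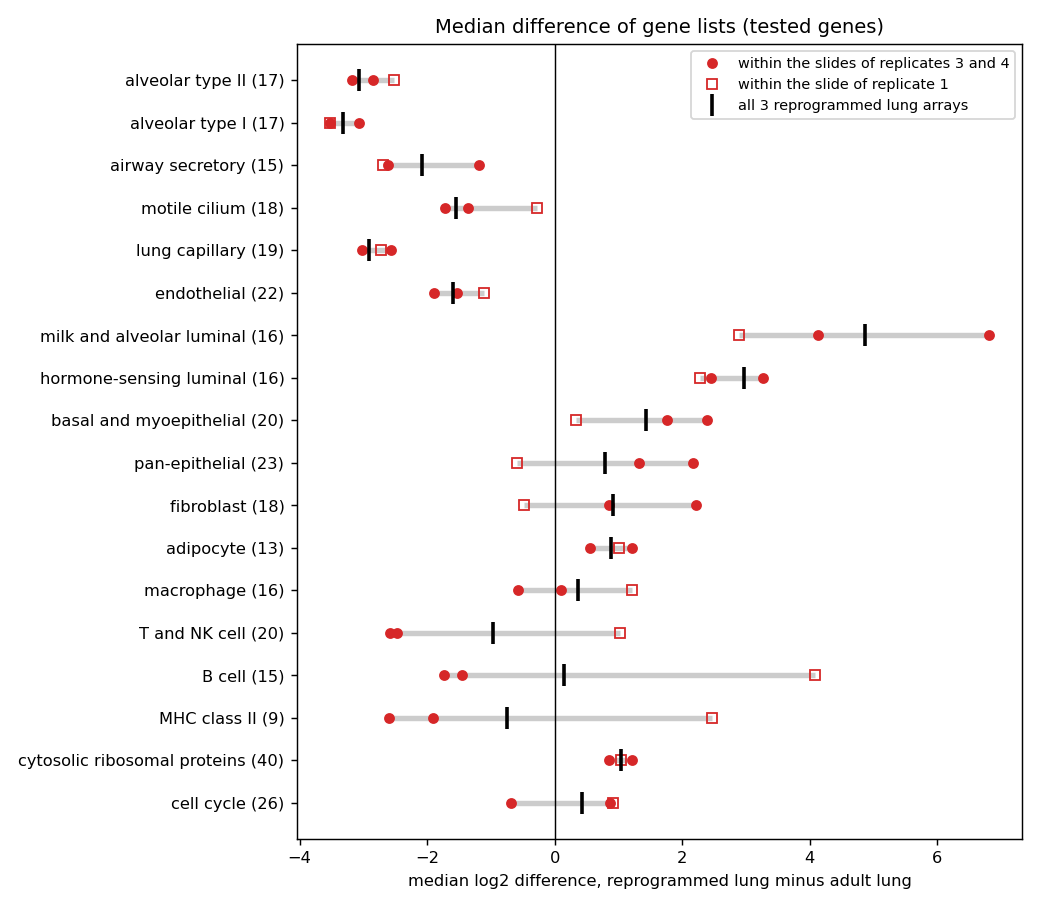
Median log2 difference, reprogrammed lung minus adult lung (x axis), of the tested genes of 18 lists (number in brackets): over all arrays (black bar), within the slides of replicates 3 and 4 (red circles) and within the slide of replicate 1 (open square), joined by grey bars. The lung lists lie below 0 and the milk and hormone-sensing lists above 0 in every slide, while B cell, T and NK cell, MHC class II, pan-epithelial and fibroblast lists have the opposite sign in the slide of replicate 1.

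Genes of the Wnt and of the TGF-beta and BMP pathways changed in both directions, as did all features (14.1% higher and 9.31% lower). In the Wnt pathway, a regulator of progenitors in both organs, 8 of 34 genes rose and 5 fell (median -0.05, and 0.02 without adult lung replicate 1 or reprogrammed lung replicate 4). Wnt3a, a ligand of canonical signalling, stood at -0.58, 0.07 and -0.06 in adult lung and at -4.98, -4.72 and -5.83 in reprogrammed lung (log2 -4.99 ± 0.38 SE, adjusted p = 2.16e-05), with only 1 reprogrammed lung array above background, so the size of the fall rests on signals near the dim end of the arrays. Nkd1, a feedback inhibitor induced by Wnt, was 7.35-fold lower with little spread, at 1.36, 1.18 and 1.14 against -1.58, -1.73 and -1.64 (-2.88 ± 0.15 SE, adjusted p = 3.07e-06). Wnt10a, a ligand of skin and mammary appendages, rose by 3.64 but stood at -2.50 on adult lung replicate 3 against -6.82 and -7.05 on the others, and the call was lost without adult lung replicate 1 (2.96, adjusted p = 0.0906) or 2 (2.84, 0.0885) or reprogrammed lung replicate 3 (3.45, 0.064). Normexp gave 0.47 (adjusted p = 0.48), and the call was also lost with slide as a fixed block (adjusted p = 0.0507) and with array weights (0.0565).

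The TGF-beta and BMP pathway held 8 genes that rose and 9 that fell of 29. Among BMP genes, Bmp5 and Bmp6, BMP ligands, fell by 3.88 and 3.65. Smad6, an inhibitor that BMP signals induce, stood at 1.98, 1.71 and 1.64 in adult lung and at -1.66, -1.63 and -1.79 in reprogrammed lung (log2 -3.47 ± 0.18 SE, 11.1-fold, adjusted p = 3.01e-06). Bmpr2, the BMP receptor of lung vessels, fell by 2.46 and Bmp4 by 1.04. Among activin genes, Inhba, the activin A subunit, stood at -2.61, -2.81 and -2.50 against 0.02, 1.23 and 1.59 (3.58 ± 0.39 SE, adjusted p = 0.000186), and Fst, the activin antagonist follistatin, rose by 3.60. Bmp2, another BMP ligand, rose by 2.46, and Gdf10, a ligand of the same family, rose from below background in adult lung by at least 12.8-fold. Both calls were lost with normexp.

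Among receptors and ligands of other pathways, Fgfr3 and Fgfr4, FGF receptors of alveolar growth, fell by 2.12 and 1.63, and Fgf10, the mesenchymal ligand of both lung and mammary budding, was not called (-1.15, adjusted p = 0.337), with levels of -2.82, -4.29 and -0.18 against -0.92, -1.47 and -1.44. Shh, the hedgehog ligand of lung epithelium, stood at -2.26, -1.69 and -1.56 in adult lung and at -3.48, -6.31 and -6.0 in reprogrammed lung, where 1 array was above background (log2 -3.43 ± 0.72 SE, adjusted p = 0.00634). Hhip, the hedgehog-binding protein that hedgehog signals induce, fell by 2.91, while the pathway's factor Gli1 and receptor Ptch1 were not called (adjusted p = 0.111 and 0.223). Notch4, the endothelial Notch receptor, fell by 3.24 and its ligand partner Dll4 by 1.39, and 6 of 16 Notch genes fell with 1 higher. Erbb4, the neuregulin receptor of lactating epithelium, was at least 4.6-fold higher (adjusted p = 0.0017), a call lost with normexp, quantile normalization and the authors' values.

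Hox genes carry the position of a tissue along the body, and they changed in both directions. Of 24 tested Hox genes, 10 rose and 4 fell, with a median of 0.50 that was -0.05 with normexp, -0.04 over members above background on all arrays and 0.25 without replicate 1. Those that fell were Hoxa4, Hoxa5, Hoxb3 and Hoxb5. Hoxb5, with Hoxa5 a gene of lung mesenchyme, stood at 0.55, 0.10 and -0.04 in adult lung and at -1.85, -2.60 and -2.03 in reprogrammed lung (log2 -2.36 ± 0.26 SE, adjusted p = 0.000204). Hoxa4 fell by 1.02 but lost the call without adult lung replicate 2 (-0.97, adjusted p = 0.0685) or 3 (-1.02, 0.0564) or reprogrammed lung replicate 3 (-0.86, 0.0655), and with normexp (-0.79, 0.0606). Hoxb3 passed narrowly (-0.71, adjusted p = 0.0489) and lost the call without any 1 array other than reprogrammed lung replicate 4 and with quantile normalization, the authors' values and normexp.

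The 10 that rose were Hoxb7, Hoxb9, Hoxc8, Hoxc9, Hoxc10, Hoxd3, Hoxd4, Hoxd8, Hoxd9 and Hoxd10, which include every called gene of the C and D clusters. Hoxc10 stood at -6.71, -7.12 and -6.69 in adult lung, below background on every array, and at 1.66, 1.12 and 2.43 in reprogrammed lung, at least 102-fold higher (adjusted p = 8.37e-07). Hoxd9 stood at -1.70, -2.53 and -0.47 against 3.34, 3.82 and 3.70 (log2 5.19 ± 0.41 SE, adjusted p = 2.66e-05). Replicate 1 did not stand apart for either gene. Other tested probes gave smaller values, 3.78 for Hoxc10 and 0.96 for Hoxd9, the latter not called (adjusted p = 0.0603). Hoxd4 and Hoxd8 were at least 16.9-fold and 7.86-fold higher from below background in adult lung, and normexp ended both calls. Of the 10 that rose, 7 lost their call with normexp, the others being Hoxb9 (1.34, adjusted p = 0.0632), Hoxc9 (0.53, 0.451), Hoxd10 (0.47, 0.44), Hoxc8 (-0.001, 0.999) and Hoxd3 (-0.28, 0.68). Hoxd3 (1.41, adjusted p = 0.0264) also lost its call without adult lung replicate 1 or 3 or reprogrammed lung replicate 1 or 3 (adjusted p = 0.052 to 0.0949).

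**Figure D5:**
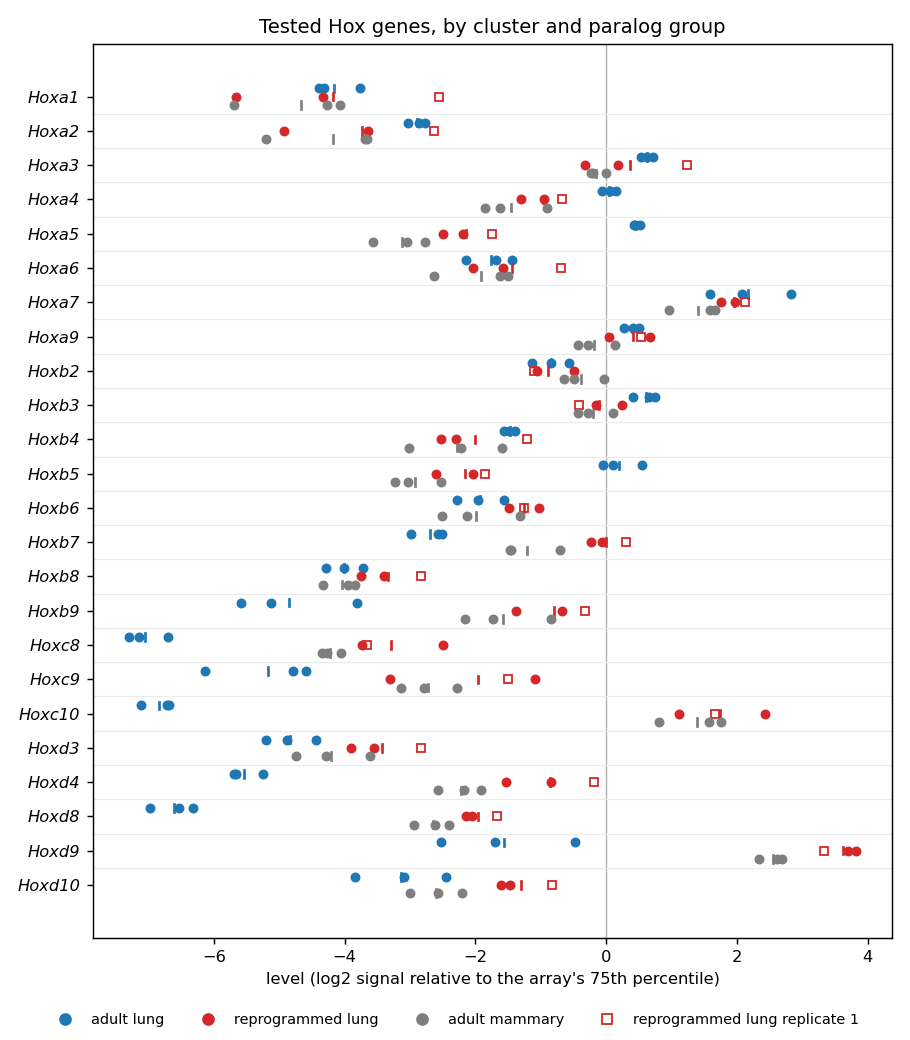
Levels of the 24 tested Hox genes on each array (x axis, log2 signal relative to the array's 75th percentile), ordered by cluster and paralog group; short bars are group means and the open red square is reprogrammed lung replicate 1. Reprogrammed lung lies above adult lung for Hoxc10 and the D cluster and below it for Hoxa4, Hoxa5 and Hoxb5, without overlap.

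Enzymes that the lung uses against foreign compounds were lower. Of 29 xenobiotic and redox genes, 14 fell and 3 rose, with a median of -1.55. Cyp2b10, a cytochrome P450 of club cells, stood at 2.89, 3.08 and 2.95 in adult lung and at -1.36, -4.11 and -3.50 in reprogrammed lung (log2 -5.96 ± 0.93 SE, 62.5-fold, adjusted p = 0.00127), and Cyp2b9 fell by 7.50. Fmo1 and Fmo2, flavin monooxygenases, fell by 3.04 and 2.99, and Aldh1a1, a retinaldehyde dehydrogenase, by 4.25. Sod3, the extracellular superoxide dismutase of lung and vessels, fell by 2.63. Cyp1b1, the cytochrome P450 that hydroxylates oestrogen, went up instead, at 0.84, 1.62 and 2.56 against -2.80, -3.0 and -2.25 (4.36 ± 0.51 SE, 20.5-fold, adjusted p = 0.000255).

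Ribosomal protein genes rose nearly throughout, each by a small amount. Of 40 tested, 37 rose and none fell, with a median of 1.04 and slide medians of 1.21, 1.04 and 0.86, and 38 rose without replicate 1. Rpl32 stood at 3.37, 3.34 and 3.44 in adult lung and at 4.89, 5.31 and 5.00 in reprogrammed lung (log2 1.69 ± 0.15 SE, 3.21-fold, adjusted p = 5.68e-05). The list's median was 0.81 with quantile normalization, 0.79 with the authors' values and 1.19 with normexp. Oxidative phosphorylation genes moved less, 8 of 30 higher and none lower (median 0.32). Of 22 immediate-early and heat shock genes, which dissociation of tissue can induce, 7 rose and none fell (median 0.67). Among them Egr2, a zinc finger factor, rose by 1.65. Fos, an AP-1 subunit, stood at 3.08, 3.32 and 3.52 in adult lung and at 3.88, 5.05 and 5.30 in reprogrammed lung (1.44, adjusted p = 0.0121), and the call was lost without adult lung replicate 1 (1.32, adjusted p = 0.0502).

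Genes of glycolysis and its response to low oxygen rose in 7 of 22 cases and fell in 1, Vegfa. Slc2a1, the glucose transporter GLUT1, rose by 2.08, Ndrg1, a gene induced by hypoxia, by 2.68, and Eno1, the glycolytic enolase, by 1.56. No cell cycle gene passed, 0 of 26 with limma over all arrays and 0 without replicate 1, while 3 were higher and 0 lower at an unadjusted p under 0.05 (median 0.44, but -0.07 with normexp, -0.21 without replicate 1 and -0.03 without adult lung replicate 1). Mki67, the proliferation marker, stood at -0.85, -0.54 and -0.33 in adult lung and at 0.68, -1.56 and -1.92 in reprogrammed lung, so that replicate 1 lay above adult lung and replicates 3 and 4 below it. Among imprinted growth genes Mest fell by 2.40 and Nnat by 2.05, the latter not passing without adult lung replicate 2 (-1.93, adjusted p = 0.0533), and Igf2, the fetal growth factor, rose by 1.55.

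Other large rises lay outside these themes. Ptn, the growth factor pleiotrophin, stood at -1.83, -1.83 and -0.49 in adult lung and at 4.70, 5.53 and 6.31 in reprogrammed lung (log2 6.90 ± 0.67 SE, 119-fold, adjusted p = 0.00016). Shox2, a homeobox factor of limb and heart, was below background on all adult lung arrays (-6.79, -7.13 and -7.34) and at -1.12, -1.10 and -0.51 in reprogrammed lung, at least 16.2-fold higher, though normexp ended the call. Fgb, the fibrinogen beta chain, stood at -6.13, -6.66 and -6.07 against -0.23, 3.64 and 1.78, at least 101-fold higher (adjusted p = 0.000114). Ubd, a ubiquitin-like protein induced by cytokines, followed Glycam1 in its order of arrays, at 3.43, 0.87 and -3.0 against -6.75, -6.91 and -7.30 (at least 41.2-fold, lost with normexp). Slc24a4, a sodium and calcium exchanger, gave one of the largest falls (-6.11).

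Adult mammary arrays served as a second reference, and reprogrammed lung showed few called differences from them. Of the 24504 features, 7 (0.0286%) were higher and 0 lower by limma, while at an unadjusted p under 0.05 the counts were 1809 and 1081, and other settings called 0 to 280 higher. No member of any of the 47 lists was called against adult mammary. Without reprogrammed lung replicate 4, 280 were higher and 48 lower, and without replicate 1 these counts were 4 and 3. A p above the threshold does not show that the groups were alike. The median difference from adult mammary was 1.23 for MHC class II, 1.21 for B cell and 1.025 for neutrophil genes. It was -0.93 for pan-epithelial and -1.02 for cell cycle genes. The 7 features were Trim12a and Trim12c, which encode TRIM proteins of antiviral defence, Ankrd12, Tecta, Olfr652 and 2 transcripts known by accession only.

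Reprogrammed lung and adult mammary can be set side by side in their difference from adult lung, which rests on the same 3 adult lung arrays for both. Adult mammary differed from adult lung in 28.5% of features, 3907 higher and 3071 lower. The median difference from adult lung was -3.32 in reprogrammed lung and -3.57 in adult mammary for type I genes, and -3.08 and -3.89 for type II genes. It was 4.86 and 4.67 for milk genes, 2.97 and 3.20 for hormone-sensing genes and 1.43 and 2.25 for basal genes. Lung capillary genes stood at -2.91 and -2.85, and ribosomal protein genes at 1.04 and 1.01. Hox genes had medians of 0.50 and -0.04, and Hoxd9, Hoxb7 and Hoxd4 were higher in reprogrammed lung than in adult mammary by 1.07, 1.21 and 1.36 without passing the test (adjusted p = 0.368, 0.157 and 0.199).

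Of the 7 features called against adult mammary, 5 were higher than adult lung as well by their brightest probe. The transcript AK035950 stood at -4.31, -4.62 and -4.30 in adult lung and at -0.29, -0.91 and -0.07 in reprogrammed lung, with an adult mammary mean of -3.85 (log2 3.99 and 3.43 against the adult groups, adjusted p = 6.97e-06 and 0.000815). Tecta, a matrix protein of the inner ear, and Olfr652, an olfactory receptor, were below background in adult lung and at most -3.58 in reprogrammed lung, close to the dim end of the arrays, and normexp turned the sign of their difference from adult lung. Ankrd12 was 2.04-fold higher than adult lung by its brightest probe. Its 3 other probes gave -0.75, called lower (adjusted p = 0.00261), and -0.37 and -0.19, not called. The direction of Ankrd12 against adult lung thus depends on the probe. Trim12c, one of the other 2, stood at -2.29, -2.25 and -1.62 in reprogrammed lung against an adult mammary mean of -4.07, with adult lung at -2.98, -2.38 and -2.63 (0.61, adjusted p = 0.0888).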

How the data were processed

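The deposited scanner files hold Cy3 intensities of single-colour Agilent arrays of design 014868, written by the authors' Feature Extraction software, version 10.5.1.1 per the file headers and 10.1 per the submitters' processing notes. The intensity column used, the processed signal, had its background removed by that software, per the file headers. The authors also deposited log2 values, which rank the probes of each array as the raw median signal does (Spearman 0.999998 or more), with array medians of 6.779 to 6.793; no source used here states their scaling.

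Log2 of the processed signal was set relative to the 75th percentile of each of the 12 arrays, so that 0 is that percentile. Spots of a probe were averaged, flagged outlier spots were left out (a feature can then lack a value on an array), and the probe with the highest mean stood for a symbol, which gave 32678 features, of which 14749 of the tested ones are named. A feature was tested if it was well above background on all 3 arrays of at least 1 group (24504). Symbols were taken from RefSeq by the transcript identifier of each probe, and a probe without a single match was left unnamed.

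Group means were fitted to all 12 arrays with limma 3.58.1 in R 4.3.3, so that 4 groups share the estimate of spread (8 residual degrees of freedom), and p-values were adjusted over all tested features by Benjamini-Hochberg, with calls under 0.05. The fit was also run on simulated data with independent noise of the same spread on every array. The real arrays differed in spread (array weights 0.12 to 3.22), so that run does not bear on the calls. SE is limma's standard error of a log2 difference. Where a gene was below background on all arrays of the dimmer group, "at least N-fold" sets the brighter mean against the lowest signal well above background on each dimmer array. Arrays have no read depth, and 3 arrays a group limit the precision.

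The genes of the lists and the lists themselves were chosen with earlier results of these data known. The named-gene rule took the 15 largest rises and 15 largest falls among called, non-overlapping genes with 6 values, up to 4 called members of each list with the largest difference and its defining members, the features called against both adult groups, and the 10 genes farthest apart on replicate 1 in each direction. Other list members named for their role were chosen after their values were seen. Not every gene that the rule names is reported here. Alternatives were other scalings, filters, blocks, weights and left-out arrays.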

Additional observations from a re-analysis of the deposited data

How the results depend on the processing

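Against 3446 features called higher and 2281 lower than adult lung, a fit to the 6 compared arrays alone called 1819 and 1303, and normexp background correction called 1123 and 1705. Normexp was run on the median signal and chosen after seeing the data, since the files have no mean signal column. Leaving out both broad arrays (reprogrammed lung replicate 1 and adult mammary replicate 4) called 4230 and 3717. Leaving out 1 array of either group called 2357 to 3985 higher and 1536 to 3269 lower, the highest counts of both being those without reprogrammed lung replicate 1. Apart from the replicate block, the remaining alternatives stayed within 1.5 times. Adult and reprogrammed lung share only the replicate numbers 1 and 3. The deviations of these array pairs correlated at r = -0.07 and 0.04 over 24196 features, and those of unlike number at -0.09 to 0.07. With 3 arrays a group these values cannot decide whether the numbers pair the samples. With the replicate block, 2247 were higher and 1481 lower.

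Against adult mammary, 7 features were higher and 0 lower. The counts were 0 and 0 in the compared groups alone, with normexp, with the replicate block and with slide as a fixed block. They were 4 and 0 for features above background on all arrays, 2 and 0 with array weights and with trend and robust variance, 3 and 0 with no filter, 2 and 3 with quantile normalization, 2 and 1 with the authors' values and 18 and 6 without both broad arrays. Leaving out 1 array gave 2 to 280 higher and 0 to 48 lower, with 280 and 48 without reprogrammed lung replicate 4, 17 and 1 without adult mammary replicate 4 and 13 and 6 without reprogrammed lung replicate 3.

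Of 288 genes followed, 149 were called in the same direction under every one of 19 alternatives that gave a value. Normexp ended 69 calls and turned 13 signs, of AK037912 (-0.38), Dkk2 (-0.19), Dlk1 (-0.11), Fgf9 (-0.29), Krt1 (-0.54), Msx2 (-0.054), Olfr652 (-0.41), Tecta (-0.34), Car9 (-0.36), Hoxc8 (-0.001), Hoxd3 (-0.28), Lgr5 (-0.15) and Slc27a2 (-0.12). The mean of all probes turned Ankrd12 (-0.071). The compared groups alone ended 76 calls, among them Epcam, Elf5, Pgr, Lalba, Napsa and Scgb3a1, and the replicate block 57, among them Lyz2, Napsa, Lalba and Glycam1. Slide as a fixed block ended that of Stat5a.

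List medians that moved by over 1.5 times also include those of motile cilium (-0.92 with normexp, -0.88 with the authors' values), airway secretory (-1.38 with normexp, -1.20 over members above background on all arrays), adipocyte (0.53 with normexp, 1.35 without reprogrammed lung replicate 1, 0.53 without 4), oxidative phosphorylation (0.48 with normexp) and pan-epithelial genes (0.41 without reprogrammed lung replicate 3).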
